A study of Mus musculus with 20 samples.

Results

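The 10 genes described here belong to the NRF2 antioxidant response: Nfe2l2, Keap1, Hmox1, Slc7a11, Gclc, Gclm, Txnrd1, Srxn1, Osgin1 and Nqo1. They were taken by gene symbol, 10 of the 14700 genes listed over the 4 tables of the series. Of these, 8 were listed in every table. Nqo1 was listed only in the comparison of the genotypes under deprivation, and Osgin1 in every table except that of the genotypes in normoxia.

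The samples were primary neurons from the cortex of E15 mouse embryos, grown for 7 days. All carried the strain label C57BL/6N-Cdr1asem1Nikr, and the genotype label made them wild type (WT) or knockout (KO) for ciRS-7, a circular RNA made from Cdr1as. N cultures spent 12 h in normoxia in medium with 25 mM glucose and 0.2 mM pyruvate, and OGD cultures 12 h at 1% oxygen in that medium with neither added, a culture model of ischaemia called oxygen and glucose deprivation. N_WT, OGD_WT, N_KO and OGD_KO each had 5 libraries of total RNA, stated to be biological replicates. The N and OGD libraries of 1 number shared a genotype label and a batch label and are called a culture here.

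NRF2, the protein made from Nfe2l2, is a transcription factor that is made and degraded continuously in unstressed cells. KEAP1 binds it and presents it to a CUL3 ubiquitin ligase. Oxidants and electrophiles modify cysteines of KEAP1, NRF2 then accumulates, pairs with a small MAF protein and binds antioxidant response elements near genes for glutathione synthesis, the thioredoxin system, haem breakdown and quinone reduction. In the brain this pathway is known to be more active in astrocytes than in neurons. The tables hold transcript levels, so neither NRF2 protein nor its binding was measured.

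The core of the antioxidant response element, TGACNNNGC, was searched on both strands of RefSeq promoter windows of build GRCm38.p6, from 250 bases before to 50 bases after an annotated start. It occurred in 12.4% of 32851 windows and in at least 1 window of 14% of 27025 genes. Windows were given for 8 of the 10 genes, and 4 of them held a match (50%), against 17 of 76 (22.4%) among the genes of the related lists used below. The matches are printed because they let the genes that rose be set beside the genes that did not. Capitals mark the match, and each stretch is written 5′ to 3′ along the strand of its gene.
Nfe2l2: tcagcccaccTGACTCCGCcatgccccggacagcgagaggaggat
Gclm: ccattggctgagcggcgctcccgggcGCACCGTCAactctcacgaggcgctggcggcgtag
Txnrd1: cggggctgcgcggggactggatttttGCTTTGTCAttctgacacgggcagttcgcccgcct
Srxn1: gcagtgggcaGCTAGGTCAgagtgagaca

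The Nfe2l2 stretch is at chr2:75704869-75704913, minus strand, and its match begins 240 bases before the start, reading as the motif is written. Those of the other genes read on the opposite strand. The Gclm stretch is at chr3:122245397-122245457, plus strand, with the match 134 bases before the start. The Txnrd1 stretch is at chr10:82859088-82859148, plus strand, 92 bases before 1 of the annotated starts of that gene. The Srxn1 stretch is at chr2:152105542-152105570, plus strand, 28 bases after the start. The letters of the motif were not found in the windows of Keap1, Nqo1, Osgin1 and Slc7a11. Gclc and Hmox1 had no window. A match is a run of letters and not a measured site. Of the genes with a match, Nfe2l2 rose under deprivation in the comparisons below, and Gclm, Txnrd1 and Srxn1 were not called. Slc7a11 and Osgin1 rose without a match in the window searched. The Osgin1 window, chr8:119436897-119437196, lies inside its gene model, which begins at 119434124, so that start was not searched. Sequence outside the windows was not searched, and the part of a match in any rise was not tested.

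Total reads recovered per library lay between 7071603 and 16658617. Cdr1as, the target of the knockout, was lower in KO by a log2 fold change of -6.32 in N cultures (limma adjusted p 5.81e-14) and of -6.26 in OGD cultures (limma adjusted p 1.03e-09). N_WT replicate 5 and OGD_KO replicate 5 held the lowest level of their groups for 5 and 6 of the genes, and the calls that their culture decides are given without it. The neuron markers were present in every library: all 12 were listed, with a summed level of 5998 to 7374 CPM (counts scaled to library size) in N_WT and 3866 to 6709 CPM in OGD_WT. Of the 10 microglia markers, 9 were not listed.

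Under deprivation the response of these genes split. Nfe2l2 itself, Hmox1, Slc7a11, Osgin1 and Gclc rose in both genotypes, and Keap1, Gclm, Txnrd1 and Srxn1 did not pass the test in either. Calls are two-sided limma tests with a threshold of 0.05 on the p adjusted by Benjamini-Hochberg over the whole table. In WT, 5 of the 9 listed genes were called higher and 0 lower, where 44.3% of 14235 genes were called, 21.6% higher and 22.8% lower. In KO the same 5 of 9 were called higher and 0 lower, where 40.9% of 14375 genes were called, 21% higher and 19.9% lower. The groups did not overlap for 5 genes in WT, against 26.9% of all genes, and for 4 in KO, against 25.8%. Without culture 5, Gclm and Txnrd1 were called lower in WT and Srxn1 was called higher in KO, as given below. Osgin1 was listed only where an OGD group was compared and had few reads in normoxia, so its presence in a table favours a rise. Its call and its lack of overlap add nothing to the counts of called genes and of groups without overlap. Without it 4 of 8 were called higher in each genotype.

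**Figure D1:**
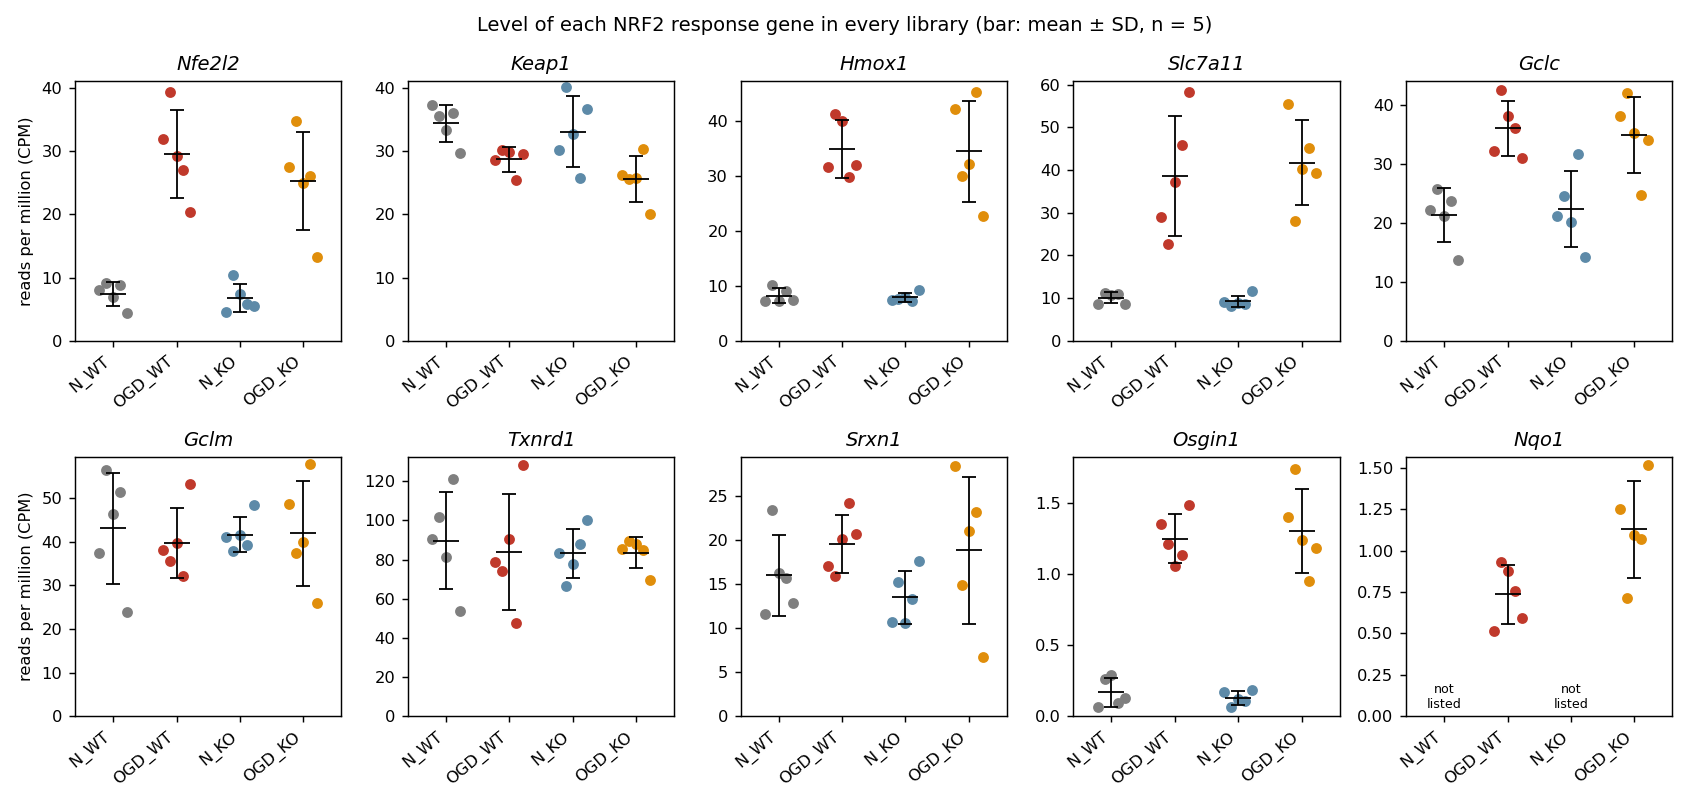
Level of each gene in every library in CPM (counts scaled to library size, vertical axis, from 0) for N_WT, OGD_WT, N_KO and OGD_KO, with 1 point per library and bars for the mean ± SD (n = 5). Nfe2l2, Hmox1, Slc7a11 and Osgin1 separate by treatment in both genotypes, while Keap1, Gclm, Txnrd1 and Srxn1 overlap; Nqo1 was not listed with the normoxic libraries.

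Nfe2l2 (ENSMUSG00000015839.6, chr2:75675513-75704641, minus strand, GRCm38) was at 8.07, 9.14, 6.89, 8.76 and 4.38 CPM in the 5 N_WT libraries and at 32.0, 39.4, 29.2, 27.0 and 20.4 CPM in OGD_WT. Every OGD_WT library lay above every N_WT library. The rise was 3.8-fold, a log2 fold change of 1.93 with SE 0.19 (limma adjusted p 1.28e-07, exact permutation p 0.00794, the smallest that 5 against 5 libraries allow). In KO the levels were 4.59, 10.3, 7.44, 5.87 and 5.48 CPM in normoxia and 27.5, 34.8, 24.9, 26.1 and 13.3 CPM under OGD. Again the groups did not overlap, although OGD_KO replicate 5 came close to the normoxic range. In KO the rise was 3.58-fold, or 1.84 on the log2 scale with SE 0.23 (limma adjusted p 6.71e-06). That the gene was higher under OGD in 5 of 5 cultures of each genotype follows from the lack of overlap and adds nothing to it.

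Keap1 (ENSMUSG00000003308.15, chr9:21229730-21239361, minus strand), the inhibitor of NRF2, did not rise with it. Its levels were 37.3, 35.6, 33.4, 36.0 and 29.8 CPM in N_WT and 28.7, 30.2, 29.9, 25.4 and 29.6 CPM in OGD_WT. The WT groups overlapped only through N_WT replicate 5. Deprivation minus normoxia was -0.27 in WT with SE 0.13 (limma adjusted p 0.108, exact permutation p 0.0159), lower in 5 of 5 cultures. In KO the levels ran from 25.8 to 40.1 CPM in normoxia and from 20.04 to 30.4 CPM under OGD, a log2 fold change of -0.35 with SE 0.15 (limma adjusted p 0.0753), lower in 4 of 5 cultures. The call of Keap1 turned on the setting. Without KO replicate 4 its log2 fold change was -0.50 (limma adjusted p 0.0147), and scaled by total reads it was -0.55 in WT (limma adjusted p 0.0032) and -0.64 in KO (limma adjusted p 0.00637).

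The balance of the 2 transcripts is free of library scaling, since it is a ratio of reads within a library. The log2 ratio of Nfe2l2 to Keap1 reads was -2.25 ± 0.31 (SD, n = 5) in N_WT and 0.01 ± 0.34 in OGD_WT, and it was -2.34 ± 0.37 in N_KO and -0.07 ± 0.38 in OGD_KO. In both genotypes all deprived libraries lay above all normoxic ones. This ratio and the ratios given below were chosen after the values had been seen and are descriptions without a test.

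Hmox1 (ENSMUSG00000005413.8, chr8:75093621-75100589, plus strand) encodes haem oxygenase 1, the inducible enzyme that opens the haem ring and releases iron and carbon monoxide. It was at 7.19, 10.1, 7.28, 9.03 and 7.35 CPM in N_WT and at 31.7, 41.4, 40.02, 29.8 and 32.0 CPM in OGD_WT. In KO it was at 7.45, 7.63, 8.04, 7.24 and 9.23 CPM in normoxia and at 42.3, 29.9, 32.2, 45.4 and 22.7 CPM under OGD. The lowest deprived library of either genotype was more than 10 CPM above the highest normoxic one. Hmox1 rose 4.07-fold in WT, a log2 fold change of 2.03 (SE 0.15, limma adjusted p 1.97e-09), and 4.11-fold in KO, one of 2.04 (SE 0.17, limma adjusted p 8.44e-08). Hmox2, which encodes the constitutive haem oxygenase, fell by 0.73 in WT (limma adjusted p 0.00093) and by 0.79 in KO (limma adjusted p 0.00145). The log2 ratio of Hmox1 to Hmox2 reads went from -1.36 ± 0.21 (SD, n = 5) to 1.47 ± 0.37 in WT and from -1.33 ± 0.12 to 1.59 ± 0.20 in KO, so its sign changed in both genotypes.

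Slc7a11 (ENSMUSG00000027737.10, chr3:49892526-50443614, minus strand) encodes xCT, the light chain of the antiporter that imports cystine in exchange for glutamate and so supplies cysteine for glutathione. It was at 8.62, 11.3, 10.7, 10.9 and 8.64 CPM in N_WT and at 29.1, 22.7, 37.1, 45.9 and 58.3 CPM in OGD_WT. The deprived WT libraries spread more widely than the normoxic ones, yet all lay above them. Slc7a11 rose in WT by a log2 fold change of 1.82 (SE 0.20, 3.54-fold, limma adjusted p 4.02e-07). In KO the levels were 9.09, 8.03, 8.76, 8.49 and 11.6 CPM in normoxia and 55.6, 28.1, 40.4, 45.2 and 39.4 CPM under OGD, a log2 fold change of 2.12 with SE 0.17 (4.34-fold, limma adjusted p 4.77e-08). Slc3a2, the heavy chain that anchors xCT and several other transporters in the membrane, rose by a log2 fold change of 1.05 in WT (limma adjusted p 1.18e-05) and 1.08 in KO (limma adjusted p 1.26e-05). The log2 ratio of Slc7a11 to Slc3a2 reads went from -3.06 ± 0.18 (SD, n = 5) to -2.25 ± 0.62 in WT, where the groups overlapped through OGD_WT replicate 2, and from -3.22 ± 0.22 to -2.13 ± 0.29 in KO, where they did not.

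Gclc and Gclm encode the catalytic and the modifier subunit of glutamate-cysteine ligase, the first and rate-limiting step of glutathione synthesis, and under deprivation only the catalytic subunit was called. Gclc (ENSMUSG00000032350.9, chr9:77754535-77794485, plus strand) was at 22.2, 25.8, 21.3, 23.7 and 13.7 CPM in N_WT and at 32.3, 42.7, 38.2, 36.1 and 31.1 CPM in OGD_WT, with no overlap. Its rise in WT was 0.75 on the log2 scale with SE 0.17 (1.68-fold, limma adjusted p 0.000942). In KO it was at 21.1, 24.6, 20.2, 31.8 and 14.3 CPM in normoxia and at 38.2, 42.1, 35.2, 24.8 and 34.0 CPM under OGD. Replicate 4 went the other way, from the highest normoxic value to the lowest deprived one. Over the KO libraries it rose by 0.66 with SE 0.19 (limma adjusted p 0.00915, exact permutation p 0.0238). That call was lost when libraries were scaled by total reads (log2 fold change 0.38, limma adjusted p 0.119) and in the 3 KO cultures of batches 3.1 and 3.3 (0.56, limma adjusted p 0.217).

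Gclm (ENSMUSG00000028124.15, chr3:122245557-122270732, plus strand) was at 37.5, 56.3, 46.2, 51.3 and 24.0 CPM in N_WT and at 38.2, 35.5, 39.6, 32.2 and 53.1 CPM in OGD_WT. Culture 5 was the lowest normoxic and the highest deprived library, opposite to cultures 2, 3 and 4. In WT the difference was -0.09 with SE 0.20 (95% interval -0.50 to 0.32, limma adjusted p 0.732). Without WT replicate 5 it was -0.40 and called lower (limma adjusted p 0.0312). In KO, Gclm ran from 37.9 to 48.3 CPM in normoxia and from 25.9 to 57.7 CPM under OGD, a log2 fold change of -0.02 with SE 0.18 (95% interval -0.39 to 0.35, limma adjusted p 0.927). The log2 ratio of Gclc to Gclm reads was -0.98 ± 0.19 (SD, n = 5) in N_WT and -0.13 ± 0.41 in OGD_WT, and -0.94 ± 0.55 in N_KO and -0.24 ± 0.62 in OGD_KO, with overlap in both genotypes.

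Txnrd1 (ENSMUSG00000020250.10, chr10:82833951-82897712, plus strand) encodes the cytosolic thioredoxin reductase, which passes electrons from NADPH to thioredoxin. It had the most reads of the 10 genes, at 90.6, 102, 81.2, 121 and 53.9 CPM in N_WT and at 78.6, 74.1, 90.5, 47.4 and 128 CPM in OGD_WT. The WT cultures disagreed, with culture 5 up by 1.25 on the log2 scale and culture 4 down by 1.35. Their log2 fold change was -0.14 with SE 0.22 (95% interval -0.60 to 0.33, limma adjusted p 0.65), and without WT replicate 5 it was -0.48 and called lower (limma adjusted p 0.00988). In KO, Txnrd1 was at 66.3 to 100 CPM in normoxia and 69.7 to 89.8 CPM under OGD, a log2 fold change of 0.02 with SE 0.15 (95% interval -0.28 to 0.33, limma adjusted p 0.911).

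Srxn1 (ENSMUSG00000032802.8, chr2:152105516-152111376, plus strand) encodes sulfiredoxin, which restores overoxidised peroxiredoxins. It was at 11.7, 23.4, 16.3, 15.8 and 12.9 CPM in N_WT and at 17.1, 15.9, 20.1, 24.2 and 20.8 CPM in OGD_WT, higher under OGD in 4 of 5 cultures. Its log2 fold change in WT was 0.30 with SE 0.18 (limma adjusted p 0.18). In KO it was at 10.7, 15.3, 10.6, 13.3 and 17.7 CPM in normoxia and at 28.4, 14.9, 21.1, 23.2 and 6.74 CPM under OGD. OGD_KO replicate 5 held 40 reads of Srxn1 and stood below every normoxic library, while 3 of the other OGD_KO libraries stood above them all. In KO it was 0.36 with SE 0.27 (limma adjusted p 0.307). Single cultures decided this gene: without WT replicate 2 it was 0.51 and called (limma adjusted p 0.0178), and without KO replicate 5 it was 0.78 and called (limma adjusted p 0.000536).

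Osgin1 (ENSMUSG00000074063.10, chr8:119434124-119446256, plus strand), an oxidative stress-induced growth inhibitor, was close to the limit of detection in normoxia. The 5 N_WT libraries held 1, 4, 3, 1 and 1 reads and the OGD_WT libraries 21, 13, 12, 9 and 15. The N_KO libraries held 2, 1, 1, 1 and 3 reads and the OGD_KO libraries 19, 22, 17, 8 and 7. Every deprived library lay above every normoxic one of its genotype. Summed over the libraries, the rate of Osgin1 reads was 7.38 times higher in OGD_WT than in N_WT (95% exact interval 3.79 to 16.1) and 10.1 times higher in OGD_KO than in N_KO (4.88 to 24.3), intervals that cover counting error only. The fitted log2 fold changes of 1.52 with SE 0.21 (limma adjusted p 6.14e-06) and 1.62 with SE 0.20 (limma adjusted p 4.91e-06) depend on the count added before taking logs, and with a prior count of 0.5 they were 2.73 and 2.97. The listing of Osgin1 itself favours a rise, so these intervals and p-values are no independent support for one.

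Nqo1 (ENSMUSG00000003849.8, chr8:107388225-107403206, minus strand), the quinone reductase often used as a readout of NRF2 activity, was scarce in these cultures. It had 8, 10, 10, 6 and 6 reads in OGD_WT and 17, 9, 15, 9 and 9 reads in OGD_KO, or 0.515 to 0.931 CPM and 0.711 to 1.52 CPM. It was not listed with the normoxic libraries, so its response to deprivation was not analysed here.

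**Figure D2:**
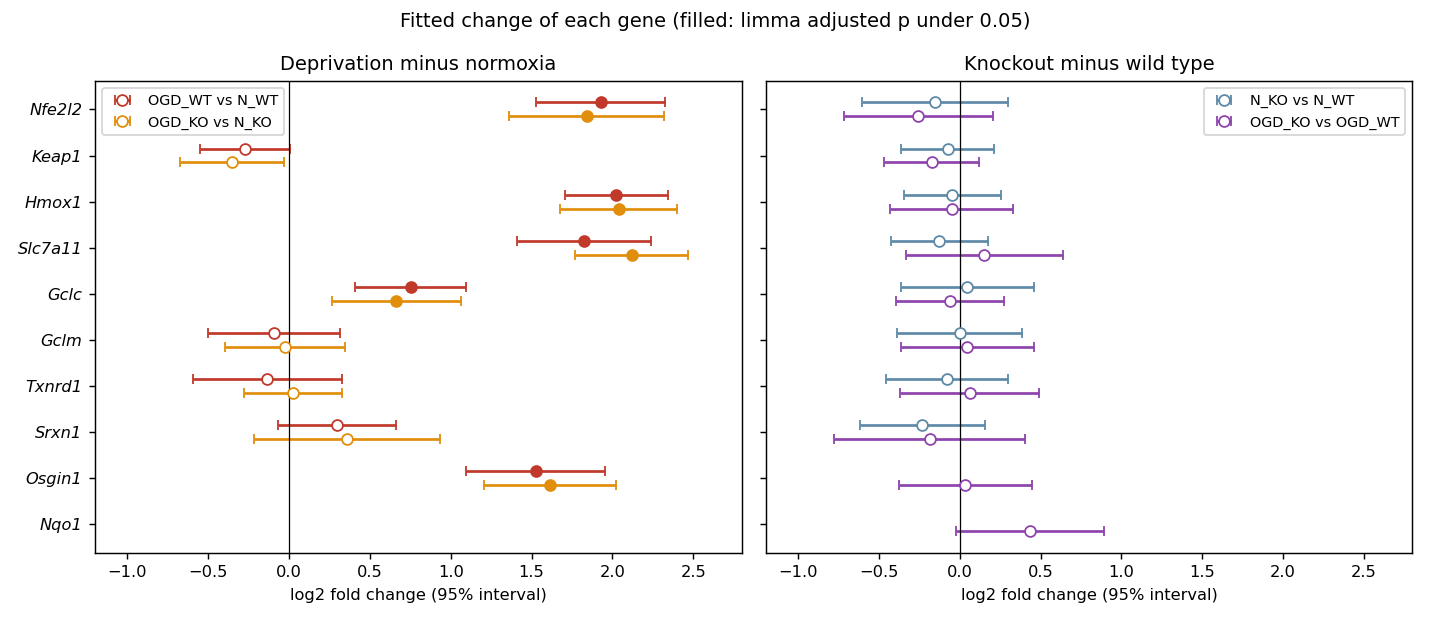
Fitted log2 fold change of each gene with its 95% interval (horizontal axis), deprivation minus normoxia on the left and knockout minus wild type on the right, filled where the limma adjusted p was under 0.05. Nfe2l2, Hmox1, Slc7a11, Osgin1 and Gclc are filled on the left in both genotypes, and no point on the right is filled.

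Levels of different genes can be set side by side only per length. On the scale of CPM per kilobase of merged GENCODE exons, Txnrd1 led in N_WT at 12.7 ± 3.52 (SD, n = 5), followed by Keap1 at 7.34 ± 0.63, Gclm at 6.84 ± 2.02, Srxn1 at 5.68 ± 1.62, Gclc at 5.66 ± 1.23 and Hmox1 at 4.68 ± 0.76. Each of these from Keap1 to Hmox1 was within the spread of its neighbour. Nfe2l2 at 1.96 ± 0.50, Slc7a11 at 0.719 ± 0.092 and Osgin1 at 0.0632 ± 0.038 lay beyond the spread of the gene before. In OGD_WT the level of Hmox1, 19.98 ± 3.03 CPM per kilobase, came first and lay beyond the spread of Txnrd1 at 11.8 ± 4.16. Gclc at 9.57 ± 1.24 and Nfe2l2 at 7.80 ± 1.83 had passed Srxn1, Gclm and Keap1, although these neighbours overlapped in spread. Txnrd1, Keap1 and Gclm also led in N_KO, and Hmox1, Txnrd1 and Gclc in OGD_KO, with Hmox1 at 19.7 ± 5.29 and Txnrd1 at 11.8 ± 1.13 in the latter.

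**Figure D3:**
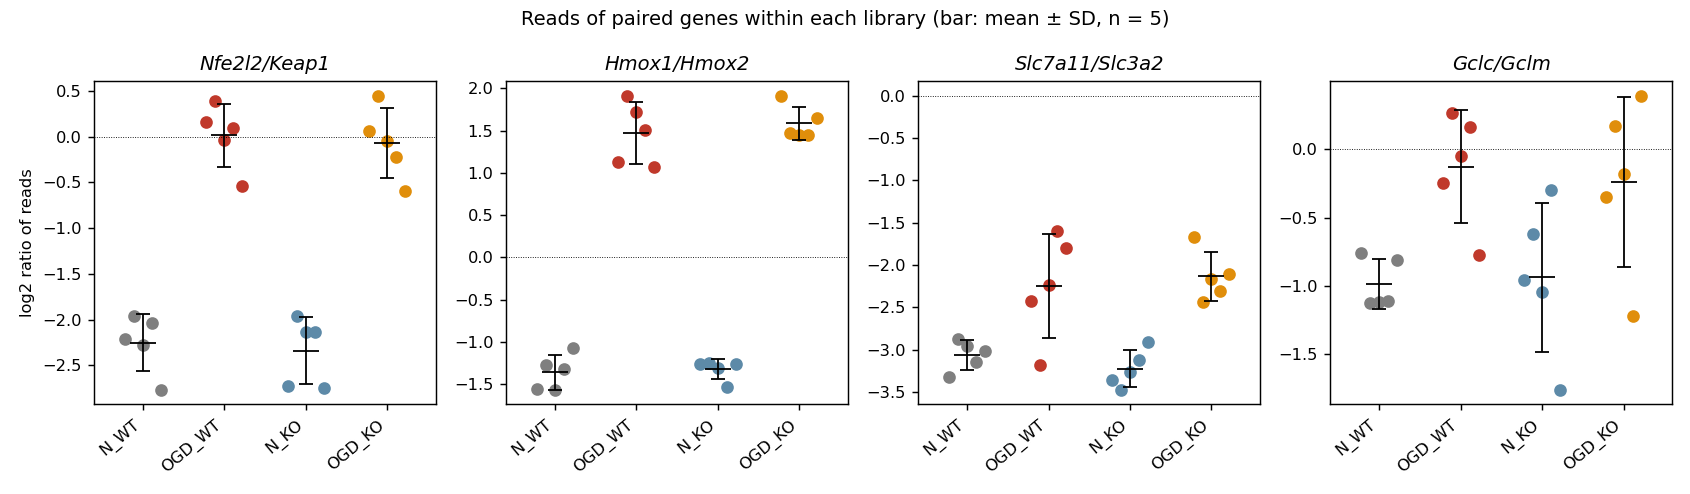
Log2 ratio of the reads of paired genes within each library (vertical axis), 1 point per library with bars for the mean ± SD (n = 5), by group. Nfe2l2/Keap1 and Hmox1/Hmox2 separate fully by treatment, Slc7a11/Slc3a2 does so in KO, and Gclc/Gclm overlaps in both genotypes.

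The counts of the related lists are to be read against the share of all genes called, 21.6% higher and 22.8% lower in WT and 21% higher and 19.9% lower in KO. With scaling by total reads, 1625 of 14235 genes were called higher and 5744 lower in WT. In KO these were 1479 of 14375 higher and 5289 lower. Of 14 regulators of NRF2, its partners and competitors included, 3 were called higher and 6 lower in WT, and 3 higher and 3 lower in KO, which except for the 6 is near the share of all genes. They had medians of -0.20 and -0.13 on the log2 scale against -0.03 and 0.00 over all genes. Scaled by total reads, 2 were called higher and 7 lower in each genotype. Maff, a small MAF protein that can pair with NRF2, rose by a log2 fold change of 2.83 in WT (limma adjusted p 8.4e-10) and 2.74 in KO (limma adjusted p 3.44e-08). Its level was 1.03 to 3.23 CPM in N_WT and 14.1 to 22.7 CPM in OGD_WT. Mafk rose by 1.15 and 0.83. Bach1, a repressor that competes for the same elements and is best known at Hmox1, rose by 0.49 (limma adjusted p 0.0071) and 0.46 (limma adjusted p 0.0182). Btrc, of the ligase complex that degrades NRF2 independently of KEAP1, fell by 0.81 and 0.80. Also lower in both genotypes were Gsk3b (-0.47 and -0.52) and Bach2 (-0.46 and -0.51). Dpp3 (-0.56), Rbx1 (-0.54) and Trim16 (-0.68) were called lower in WT, and were at -0.34, -0.38 and -0.15 in KO; the interaction test below called no gene. Sqstm1, an adaptor that binds KEAP1, was at 0.04 in WT (limma adjusted p 0.897) and -0.10 in KO (limma adjusted p 0.745).

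Of 23 glutathione genes chosen, 17 were listed in both comparisons. Of these 17, 9 were called higher and 2 lower in each genotype, where 21.6% of all genes were called higher in WT and 21% in KO. Their medians were 0.44 in WT and 0.39 in KO, against -0.03 and 0.00 over all genes. Besides Slc3a2, glutathione synthetase (Gss), the second enzyme of the synthesis, rose by 0.88 (limma adjusted p 0.000327) and 0.89 (limma adjusted p 0.000482), and the transferase Gstm1 by 0.84 and 0.82. The microsomal transferase Mgst3 fell by 1.00 and 0.90, and Ggct, which breaks down gamma-glutamyl peptides, fell by 0.72 and 0.56. Scaled by total reads, 3 were called higher and 3 lower in WT and 4 and 4 in KO. Of all genes, 1625 of 14235 were called higher and 5744 lower on that scale in WT, and 1479 of 14375 higher and 5289 lower in KO. The counts of this list thus depend on the scaling, as those of all genes do.

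The thioredoxin list of 13 had 5 genes called higher and 2 lower in WT, and 3 higher and 2 lower in KO. In either direction that is 7 of 13 called in WT and 5 of 13 in KO, near the 44.3% and 40.9% of all genes. By direction, the 5 of 13 called higher in WT stand against 21.6% of all genes, and the 3 of 13 in KO against 21%. Txnip, which binds and inhibits thioredoxin and is known to follow glucose supply, fell by 1.59 in WT (limma adjusted p 8.76e-07) and by 1.51 in KO (limma adjusted p 1.86e-05). Txnrd3 fell by 1.21 and 1.09. Prdx6, a peroxiredoxin, rose by 0.69 and 0.70, the stress protein Sesn2 by 0.68 and 0.81, and mitochondrial thioredoxin, Txn2, by 0.40 and 0.46. Thioredoxin itself, Txn1, was called in WT at 0.42 (limma adjusted p 0.0199) and was at 0.40 in KO (limma adjusted p 0.0532). Prdx1, a classical NRF2 target, was called in WT at 0.58 (limma adjusted p 0.027) and was at 0.48 in KO (limma adjusted p 0.118). Scaled by total reads, 2 of the list were called higher and 5 lower in each genotype.

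The list for NADPH, which both systems consume, held G6pdx, Pgd, Pgls, Taldo1, Tkt, Me1 and Idh1. Not all of these make NADPH themselves. Idh2, given below as the gene most like Hmox1, was not in the list, so its counts do not cover every gene that supplies NADPH. Of the 7 listed genes, 0 were called in either genotype by limma, and 1 was called lower in each genotype when scaled by total reads. Of them G6pdx, the first enzyme of the pentose phosphate pathway, was at a log2 fold change of 0.15 (limma adjusted p 0.47) in WT and 0.10 (limma adjusted p 0.68) in KO. Of 9 haem and iron genes, 1 was called higher and 3 lower in each genotype, and 1 and 4 when scaled by total reads. The 4 of 9 called in either direction are near the 44.3% and 40.9% of all genes so called. Ftl1, the ferritin light chain that stores iron, rose by 0.85 (limma adjusted p 0.00121) and 1.07 (limma adjusted p 0.000695), while the heavy chain Fth1 was at 0.37 and 0.41 and was not called. Hmox2 and ferrochelatase, Fech (-0.54 and -0.49), fell in both, with Slc40a1 (-0.79) called lower in WT and Blvra (-0.52) in KO. Slc40a1 had a median of only 7 reads in OGD_WT, and its mean was 1.53 CPM in N_KO and 1.52 CPM in OGD_KO. In WT, Blvra was at -0.24 (limma adjusted p 0.313).

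Of 15 detoxification genes chosen, 11 were listed in the WT comparison and 13 in the KO comparison. Of the listed genes, 5 of 11 were called higher and 2 lower in WT, and 8 of 13 higher and 2 lower in KO. Of all genes, 21.6% and 21% were called higher. Among the 8 was Ptgr1, named after its values were seen, which was listed only in the tables that hold OGD_KO, the group where it was highest, so its call adds nothing to the count. The aldo-keto reductase Akr1b10 rose by 0.96 (limma adjusted p 0.000587) and 1.14 (limma adjusted p 0.00011), Ugdh by 0.64 and 0.70, the exporter Abcc4 by 0.62 and 0.69, the epoxide hydrolase Ephx1 by 0.59 and 0.47 and the exporter Abcc1 by 0.59 and 0.49. Cbr1 (-0.54 and -0.58) and Akr1c13 (-0.50 and -0.69) fell. Scaled by total reads, 1 of this list was called higher and 2 lower in WT and 3 and 2 in KO. The last list, of 8 genes, held the remaining superoxide and peroxide enzymes together with Ccs, Selenow and Msrb1, which are not dismutases, catalases or peroxidases. Sod3 was not listed, and Gpx3 was not listed in the WT comparison. In WT 2 of 6 were called higher and 1 lower, and in KO 0 of 7 higher and 1 lower. Of all genes, 44.3% and 40.9% were called in either direction. Scaled by total reads, 0 of this list were called higher in either genotype. Sod2, the mitochondrial superoxide dismutase, fell by 0.43 (limma adjusted p 0.0329) and by 0.49 (limma adjusted p 0.0414), and Sod1 (0.43) and Cat (0.40) were called higher in WT. In KO these were not called, with mean levels of 51.2 CPM in normoxia and 57.4 CPM under OGD for Sod1. For Cat the KO means were 48.3 and 61.0 CPM.

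**Figure D4:**
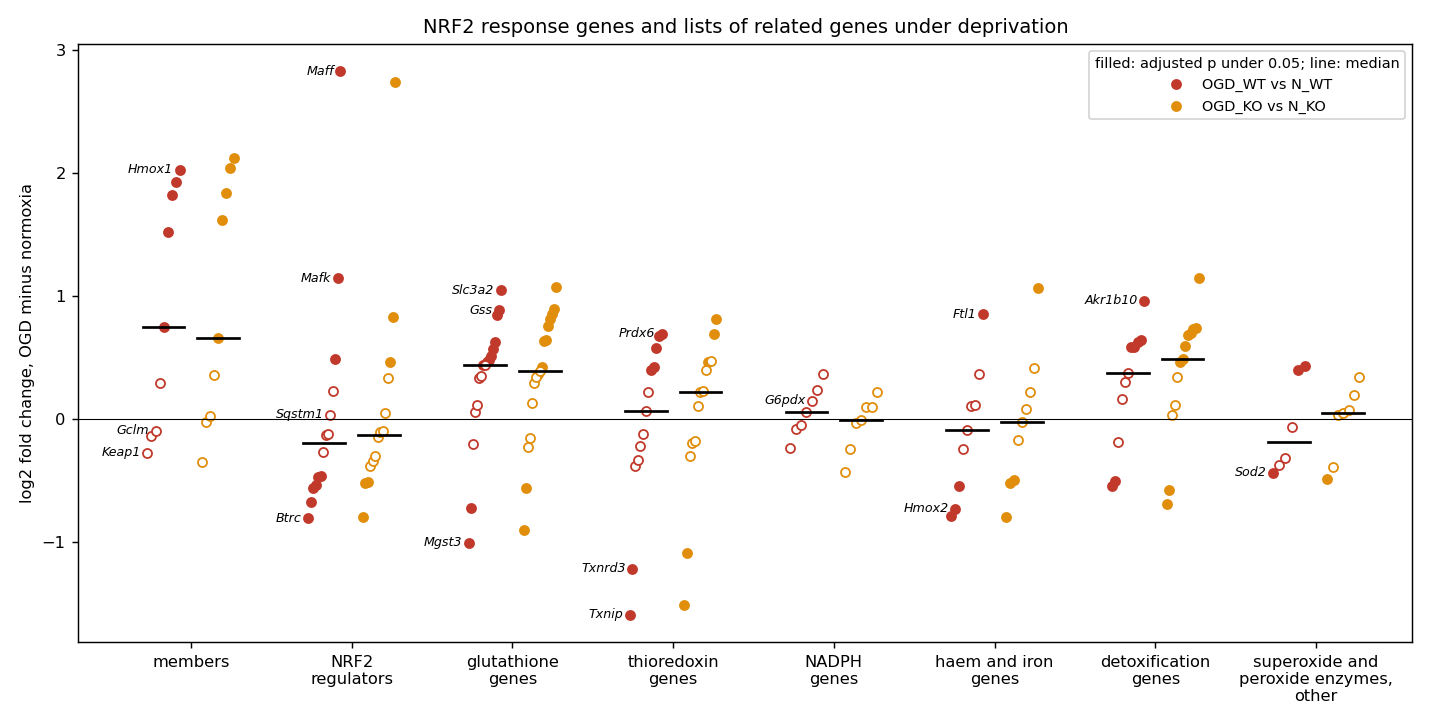
Log2 fold change under deprivation (vertical axis) of the NRF2 response genes and of 7 lists of related genes, 1 point per gene, filled where the limma adjusted p was under 0.05, with a line at each median, for OGD_WT vs N_WT and OGD_KO vs N_KO. Maff lies at 2.83 and 2.74, above Hmox1 at 2.03 and 2.04, and the 7 genes of the NADPH list, which leaves out Idh2, have no filled point.

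Scaling by total reads moved the median log2 fold change of all genes to -0.30 in WT and -0.28 in KO and the share of called genes that were higher from 48.6% to 22.1% and from 51.3% to 21.9%. On either scale Nfe2l2, Hmox1 and Slc7a11 were called higher in both genotypes, with log2 fold changes of 1.69, 1.78 and 1.57 in WT and 1.60, 1.78 and 1.86 in KO when scaled by total reads. In the 4 WT cultures of batches 3.1, 3.2 and 3.3 alone their values were 1.93, 2.02 and 1.86, and in the 3 KO cultures 1.68, 1.93 and 1.96, all called by limma. No single batch label held more than 2 cultures of a genotype.

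Markers of cell types were measured in the same fits. Of the 12 neuron markers, 6 were called lower in WT and 7 in KO, where 22.8% and 19.9% of all genes were called lower, and their summed level in KO was 6475 to 6900 CPM in normoxia and 4135 to 5406 CPM under OGD. Of the 10 astrocyte markers, 9 were listed. Of these, 6 were called higher and 1, Gfap, lower in WT, and 5 higher in KO, where 21.6% and 21% of all genes were called higher. Their summed level was 1134 to 1415 CPM in N_WT, 1859 to 2308 CPM in OGD_WT, 898 to 1587 CPM in N_KO and 1522 to 2364 CPM in OGD_KO. Such sums weigh the markers with the highest levels most. Slc1a3 alone went from a mean of 443 CPM in N_WT to 946 CPM in OGD_WT, while Slc1a2 was at 460 and 466 CPM. Map2 (mean 2670 CPM in N_WT) weighs most in the neuron sum, and Mki67 (274 CPM) in that of cycling cells. The 6 markers of cycling cells were all called higher in both genotypes, from 391 to 503 CPM in N_WT to 730 to 1336 CPM in OGD_WT, and from 364 to 613 CPM in N_KO to 900.0 to 1235 CPM in OGD_KO. Of the 9 markers of the oligodendrocyte lineage 8 were listed, with 1 called higher and 2 lower in WT and 3 higher in KO. Taken in either direction, that is near the 44.3% and 40.9% of all genes called. At most 3 of the 7 endothelial and pericyte markers and 2 of the 4 fibroblast markers were listed in a group, with sums of at most 8.12 and 4.86 CPM. The part of all these markers in the rise of Nfe2l2, Hmox1, Slc7a11, Osgin1 and Gclc was not tested. In such bulk samples fewer cells of a type and less RNA per cell cannot be told apart.

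Across the 20 libraries and 12667 genes whose mean level reached 1 log2 CPM, the genes most like Hmox1 by Pearson correlation of log2 levels were Idh2 (0.978), Itgb1 (0.976) and Cpeb1 (0.976). Most like Nfe2l2 were Spry2 (0.980), Cpeb1 (0.967) and Sun2 (0.963), and most like Slc7a11 were Cd44 (0.969), Fbln2 (0.967) and Clic4 (0.961). These values describe the libraries, which share the split into N and OGD, and carry no test. Hmox1, Nfe2l2 and Slc7a11 were taken because their fitted change in WT was the largest among the 8 genes listed in every table; Osgin1, whose ratio of reads was 7.38 in WT, is not among those 8.

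Loss of ciRS-7 was not followed by a detectable change in these genes. In normoxia 0 of the 8 listed genes were called between N_KO and N_WT, where 0.0353% of 14152 genes were called by limma, and 0 had an unadjusted p under 0.05, against 1.81% of all genes. Under OGD 0 of 10 were called between OGD_KO and OGD_WT, where 0.0282% of 14185 genes were called, and 0 had an unadjusted p under 0.05, against 1.78%. Both shares of all genes are below the 0.05 that tests of no effect give on average, so a lack of calls is not evidence of no change. The groups overlapped for every one of the genes in both comparisons, where 0.325% and 0.345% of all genes did not overlap.

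In normoxia the log2 fold changes by knockout ran from -0.23 for Srxn1 (95% interval -0.62 to 0.16) to 0.05 for Gclc (-0.36 to 0.46), each with a limma adjusted p of 1. Nfe2l2 was at -0.15 (-0.61 to 0.30), Keap1 at -0.07 (-0.36 to 0.21), Hmox1 at -0.05 (-0.35 to 0.25) and Slc7a11 at -0.13 (-0.43 to 0.17). Under OGD, Nfe2l2 was at -0.25 (-0.72 to 0.21), Keap1 at -0.17 (-0.47 to 0.12), Hmox1 at -0.05 (-0.43 to 0.33), Slc7a11 at 0.15 (-0.33 to 0.64) and Srxn1 at -0.19 (-0.77 to 0.40). These intervals reach as far as -0.77 on the log2 scale. Nqo1 had the largest estimate, 0.43 with SE 0.22 (95% interval -0.02 to 0.89, limma adjusted p 1), from the few reads given above. Its exact permutation p was 0.0476 before any correction for the 18 such tests of these genes between genotypes, and its groups overlapped.

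The difference between the genotypes in their response to OGD is the interaction term, fitted on the 20 libraries with the culture as a random block. Of 13688 genes, 0% were called by limma, with a smallest adjusted p of 1, and 99 (0.723%) had an unadjusted p under 0.05. None of the 8 genes tested was called. That share is below the 0.05 that tests of no effect give on average, and the block correlation was -0.19. A lack of calls is therefore not evidence of an equal response. Slc7a11 had the largest estimate, 0.28 higher in KO on the log2 scale (SE 0.31, 95% interval -0.35 to 0.91), followed by Txnrd1 at 0.13 (-0.48 to 0.74). Hmox1 was at -0.01 (-0.53 to 0.51), Nfe2l2 at -0.10 (-0.89 to 0.68), Gclc at -0.11 (-0.71 to 0.48) and Keap1 at -0.11 (-0.53 to 0.32). The interval of Hmox1 leaves out a difference as large as its rise in either genotype, while a difference of 0.5 on the log2 scale in at least 1 direction lies within the interval of each of the 8 genes.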

How the data were processed

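RNA sequencing of 20 libraries was analysed from 4 tables of log2 CPM, 1 per comparison of 2 groups, as the authors deposited them. Reads were placed on mm10, per the submitters' processing notes. The aligner, counting, annotation, gene filter and scaling are not given in the sources used here. In each gene and group the lowest and highest deposited log2 value lay where a clipping at the 10th and 90th percentile (weights 0.6 and 0.4) puts them, a step inferred from the values. It was inverted. At least 99.9% of the values of a library then corresponded to whole reads within 0.05 reads (up to 500 reads), against 45.5% to 92.8% as deposited.

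Each table was fitted with limma 3.58.1 in R 4.3.3 (lmFit, eBayes with trend) on these log2 values, without block or batch term, and adjusted over all its genes. The interaction used recovered reads of 13688 genes on a joint scale (median-of-ratios, prior count 2), which also gives the CPM printed. Exact permutation tests were two-sided. The code was tested on simulated data. Gene positions and exon lengths are from GENCODE mouse release M21 (GRCm38), and promoters from RefSeq. The counting is not stated to use strand, so reads of overlapping antisense genes cannot be told apart.

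The genes and lists were chosen with earlier results of these data known. Named were all 10 genes. Of each related list, at most 4 genes called in both OGD comparisons were named, by size in WT, plus Sqstm1, Bach1, Txnip, G6pdx, Fth1, Prdx1 and Slc3a2. Gsk3b, Bach2, Dpp3, Rbx1, Trim16, Ggct, Txn1, Txn2, Slc40a1, Blvra, Abcc1, Cbr1, Akr1c13, Sod1, Cat and the marker Gfap complete counts and were chosen after their values were seen. The N and OGD libraries of 1 number are paired by a shared genotype and batch label, yet their deviations from the group means correlated between -0.75 and 0.05 and none correlated best with its own number. P-values of the comparisons of 2 groups set a difference against the spread between libraries within a group, without use of the pairing.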

Additional observations from a re-analysis of the deposited data

Results flagged for a closer look

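Among 38 groups of 5 libraries of the 10 genes, 1 held a library far from the other 4, where chance gives about 1.9. Txnrd1 in OGD_KO replicate 5 was at 6.13 on the joint log2 scale, against 6.41 to 6.49 in the other OGD_KO libraries. It had 414 reads there, or 69.7 CPM.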

How the results depend on the processing

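The rise of Nfe2l2, Hmox1 and Slc7a11 under OGD was called by limma under every alternative run in both genotypes, with log2 fold changes of 1.69 to 2.02, 1.78 to 2.11 and 1.57 to 2.04 in WT and 1.60 to 2.00, 1.78 to 2.23 and 1.86 to 2.21 in KO. Osgin1, which was listed only through the groups where it is high, had fitted values of 1.44 to 2.73 in WT and 1.49 to 2.97 in KO. Gclc was called in all 12 alternatives in WT (0.48 to 0.81) and in 10 of 12 in KO (0.38 to 0.92). The values are log2 differences throughout, and the causes of the changes below were not tested. Beside the calls given in the text, Keap1 was called lower on the values as deposited (limma adjusted p 0.0246 in WT and 0.0143 in KO). On those values Srxn1 was called higher in WT (limma adjusted p 0.0468). The inferred clipping of the deposited values narrows the spread within a group, so p-values on them tend to be too small. Between genotypes no call was made for any of the genes under any alternative, and Nqo1 ran from 0.31 to 0.61 (limma adjusted p 0.892 to 1).

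A replicate block, with the culture as a fixed term, called 5681 genes in WT and 4829 in KO against 6313 and 5884, and changed no call of the 10 genes. The interaction without the block called 0 genes. The numbers of genes called over the whole table moved as follows. OGD_KO vs N_KO gave 2341 in batches 3.1 to 3.3 alone. N_KO vs N_WT, with 5, gave 9 as deposited, 3 among genes whose mean reached 1 log2 CPM, 11 with the batch as a covariate, 2 in batches 3.1 to 3.3, and 3 to 5 with a replicate left out. OGD_KO vs OGD_WT, with 4, gave 12 as deposited, 2 by total reads, 1 with a prior count of 0.5, 17 with the batch as a covariate, and 1 to 7 with a replicate left out.

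Estimates near 0 changed sign. In OGD_KO vs N_KO these were Gclm at 0.016 as deposited, Txnrd1 at -0.27 by total reads and -0.037 in batches 3.1 to 3.3, and Srxn1 at -0.19 in those batches. In N_KO vs N_WT, Gclm was at 0.0040 and 0.0042 with median-of-ratios scaling and prior counts of 2 and 0.5, and the batch covariate gave Gclm 0.22, Slc7a11 0.016 and Txnrd1 0.093. In OGD_KO vs OGD_WT the batch covariate gave Gclc 0.0098, Gclm -0.12, Txnrd1 -0.087 and Osgin1 -0.045, and batches 3.1 to 3.3 gave Gclm -0.044 and Slc7a11 -0.076. The interaction of Hmox1 was 0.0049 by total reads.

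With 1 replicate left out, Gclm ranged from -0.40 to 0.056 and Txnrd1 from -0.48 to 0.17 in OGD_WT vs N_WT, and Gclm from -0.17 to 0.19 and Txnrd1 from -0.084 to 0.16 in OGD_KO vs N_KO. In N_KO vs N_WT the ranges were -0.15 to 0.011 for Keap1, -0.10 to 0.032 for Hmox1, -0.10 to 0.20 for Gclc, -0.20 to 0.11 for Gclm and -0.25 to 0.041 for Txnrd1. In OGD_KO vs OGD_WT they were -0.16 to 0.087 for Hmox1, -0.13 to 0.059 for Gclc, -0.077 to 0.21 for Gclm, -0.021 to 0.32 for Slc7a11, -0.12 to 0.24 for Txnrd1, -0.37 to 0.13 for Srxn1 and -0.053 to 0.12 for Osgin1. Interaction ranges were -0.27 to 0.050 for Nfe2l2, -0.26 to 0.019 for Keap1, -0.15 to 0.19 for Hmox1, -0.26 to 0.14 for Gclc, -0.11 to 0.35 for Gclm, -0.17 to 0.48 for Txnrd1 and -0.22 to 0.47 for Srxn1.

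The list counts by total reads and without replicate 5 were added after the data were seen. Without replicate 5, 10 glutathione genes were called higher in WT and 8 in KO, and 1 NADPH gene was called higher in KO. Depth limits Osgin1 and Nqo1, which held at most 22 and 17 reads in a library.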
